A study of Homo sapiens with 9 samples.

Results

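Expression of the transcription factors that drive the epithelial-to-mesenchymal transition (EMT) and of the regulators that hold cells in the epithelial state was described in OVCAR3 cells in which CTCFL was raised or lowered. The genes were 10, taken by name from 60660 gene identifiers in the count table: the EMT factors SNAI1, SNAI2, ZEB1, ZEB2, TWIST1 and TWIST2, and the epithelial regulators OVOL1, OVOL2, GRHL2 and ESRP1. CTCFL, also called BORIS, is a paralog of the chromatin protein CTCF that is normally restricted to the male germ line and is expressed in many cancers. OVCAR3 is an established human cell line derived from high-grade serous ovarian cancer.

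RNA was sequenced from 9 libraries in 3 groups of 3. Control cells received the LacZ version of the plasmid vector and CTCFL-OE cells the pCpGfree-vitroHBORIS plasmid, both at 2 µg with harvest at 48 h per the methods. CTCFL-KD cells were depleted of CTCFL with siRNA, and their RNA came from knockdown experiments of earlier work, so the knockdown, its agent and its experiment cannot be told apart. All groups were the same line grown in RPMI-1640 with serum, and the same 3 Control libraries stood in both comparisons. Each biological replicate of Control and CTCFL-OE pooled several technical replicates per the methods, which do not state pooling for CTCFL-KD. Transfected populations were measured whole, so fewer cells with a transcript and less transcript per cell cannot be told apart.

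EMT is the switch by which epithelial cells lose their junctions and gain motility. Snail (SNAI), ZEB and TWIST proteins repress junction genes such as CDH1 and turn on mesenchymal genes, with SNAI and ZEB proteins reading E-box sequences in target promoters. OVOL and grainyhead-like (GRHL) proteins act on the other side by repressing ZEB1 and activating junction genes, ESRP proteins set the epithelial pattern of splicing, and microRNAs of the miR-200 family and ZEB proteins repress each other.

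Total counts ranged from 14332622 to 24490080 per library, so that 3 counts, taken here as the limit of detection, were worth 0.117 to 0.271 CPM (read counts scaled to the library total and to the TMM factor, the trimmed mean of M-values). CTCFL itself had 6, 9 and 10 counts in Control, 36, 34 and 72 counts in CTCFL-OE, and 0, 1 and 0 counts in CTCFL-KD, so the libraries followed their labels (edgeR quasi-likelihood test, adjusted p = 0.0287 for CTCFL-OE and 0.0162 for CTCFL-KD). CTCFL-KD replicate 1 stood apart: the deviation of its log2 levels from the mean of its own group correlated with transcript length at a Spearman coefficient of -0.518, against 0.446 and 0.472 in the other CTCFL-KD libraries and -0.238 to 0.178 elsewhere (17736 genes, deviations that cancel within a group). The 10 ovarian carcinoma markers summed to 4800 to 16300 CPM, and each exceeded 3 counts in at least 1 library of every group. Of 12 fibroblast markers, 5 were high enough to test and 3 of these were higher in CTCFL-KD (as were 21.4% of all tested genes), where the list summed to 107 to 160 CPM against 36.4 to 42.6 in Control and 32.7 to 59.4 in CTCFL-OE. Most of that sum was COL5A2, a fibrillar collagen chain, at 64.4, 116 and 122 CPM in CTCFL-KD and 8.36 to 9.48 in Control, while COL1A1 was at 21.3 to 26.1 and 26.4 to 32 CPM. COL1A2, another collagen chain, had 0 counts in all Control libraries and 156, 239 and 247 in CTCFL-KD, while the fibroblast marker DCN was at 0, 4 and 0 in CTCFL-KD. POSTN, the third fibroblast marker called higher in CTCFL-KD, kept its call in 19 of 19 alternative analyses (log2 fold change 2.24 to 3.57). The 7 immune and endothelial markers summed to 7.12 to 11 CPM across all libraries. Mitochondrial genes took 6.16 to 6.52% of counts in Control, 7.4 to 14.9% in CTCFL-OE and 7.8 to 11.8% in CTCFL-KD, so every treated library lay above every Control library. The part of these differences in the results that follow was not tested.

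Corrected for exon length of the canonical transcript, the epithelial regulators ESRP1, GRHL2 and OVOL2 stood at the top of the 10 genes in Control. ESRP1 was highest at 45.4 ± 1.75 CPM per kb (SD, n = 3), followed by GRHL2 at 12.2 ± 0.419 and OVOL2 at 11 ± 0.377. SNAI1 was the most abundant EMT factor at 6.37 ± 0.718 CPM per kb. OVOL1 at 1.36 ± 0.192 and TWIST1 at 1.34 ± 0.134 were neighbours whose ranges overlapped, while the ranges of GRHL2 and OVOL2 did not. TWIST2 reached 0.209 ± 0.0723 CPM per kb, and ZEB2, ZEB1 and SNAI2 lay below it at 0.0275, 0.00218 and 0. In CTCFL-KD the order among the EMT factors was turned, with TWIST1 at 5.52 ± 1.43 and SNAI1 at 1.77 ± 0.0913 CPM per kb.

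**Figure D1:**
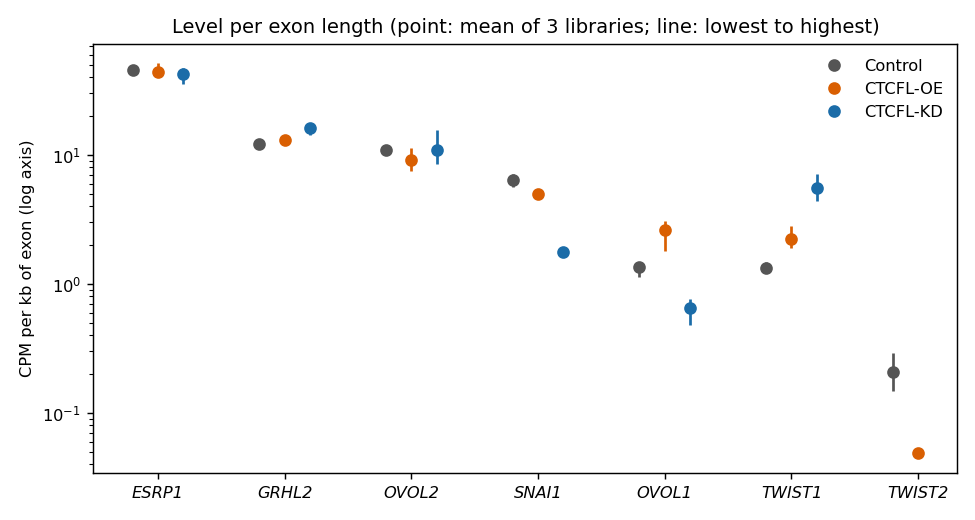
Level of 7 genes in CPM per kb of exon on a log axis, by group; points are means of 3 libraries and lines run from the lowest to the highest library. ZEB2, ZEB1 and SNAI2, all under 0.1 CPM per kb, are left out, as are TWIST2 in CTCFL-KD, where it was at 0, and its range in CTCFL-OE, whose lowest library was at 0. The order of SNAI1 and TWIST1 in Control is turned in CTCFL-KD.

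SNAI1 (ENSG00000124216.4, chr20:49982980-49988886, plus strand, GRCh38), which encodes the zinc finger repressor Snail, fell when CTCFL was depleted. Its level was 12.1, 10.9 and 9.62 CPM in Control, 9.03, 8.47 and 8.05 CPM in CTCFL-OE, and 3.16, 2.85 and 3.07 CPM in CTCFL-KD. Every CTCFL-KD library lay below every other library, and the CTCFL-OE libraries lay just below those of Control. The log2 fold change was -1.84 ± 0.18 (SE) in CTCFL-KD, a 3.59-fold lower level (adjusted p = 3.94e-05), and -1.87 without CTCFL-KD replicate 1 (adjusted p = 1.57e-05). In CTCFL-OE it was -0.35 ± 0.17 (95% interval -0.72 to 0.02, adjusted p = 0.309). This value passed the threshold of 0.1 only when CTCFL-KD replicate 1 was left out of the shared fit (adjusted p = 0.09). SNAI2 (ENSG00000019549.13), the gene of the related repressor Slug, had 0 counts in all 9 libraries, which allows at most 0.117 to 0.271 CPM.

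ZEB1 and ZEB2, which encode large repressors with paired zinc finger clusters, were at or near the limit of detection in every group and were not tested. ZEB1 (ENSG00000148516.22, chr10:31318495-31529814, plus strand) had 0, 1 and 0 counts in Control, 0, 1 and 0 counts in CTCFL-OE, and 2, 0 and 1 counts in CTCFL-KD. ZEB2 (ENSG00000169554.22, chr2:144364364-144521057, minus strand) had 4, 8 and 5 counts in Control, 2, 2 and 2 counts in CTCFL-OE, and 0, 0 and 2 counts in CTCFL-KD. Both treated groups lay below Control for ZEB2. Scaled by library size, the summed counts of ZEB2 were 2.48 times lower in CTCFL-OE (95% counting interval 0.934 to 7.69) and 6 times lower in CTCFL-KD (1.42 to 53.5), intervals that cover counting error only. In a fit with no low-count filter, the adjusted p of ZEB2 was 0.594 for overexpression and 0.059 for depletion. ZEB1 shares 396 exonic bases with its antisense neighbour ZEB1-AS1, and ZEB2 shares 1299 with ZEB2-AS1. ZEB1-AS1 had 5 to 17 counts per library and did not pass in either comparison (log2 fold change 0.05 with CTCFL raised and -0.12 with CTCFL lowered), and ZEB2-AS1 was at 0 throughout, as were SNAI1P1 and ZEB2P1, the copies of SNAI1 and ZEB2 that could share reads with them. The strand setting of the counting was not given in the sources used here, so reads in these shared stretches are uncertain.

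TWIST1 (ENSG00000122691.13, chr7:19020991-19117636, minus strand), a basic helix-loop-helix factor of mesoderm and neural crest, moved opposite to SNAI1. Its level was 2, 2.14 and 2.43 CPM in Control, 4.61, 3.08 and 3.32 CPM in CTCFL-OE, and 11.6, 7.19 and 8.16 CPM in CTCFL-KD. The 3 groups did not overlap, and both treated groups lay above Control. TWIST1 rose in CTCFL-KD by a log2 fold change of 2.03 ± 0.26 (4.08-fold, adjusted p = 0.000195), and by 1.81 without CTCFL-KD replicate 1, its highest library (adjusted p = 7.85e-05). In CTCFL-OE the log2 fold change was 0.75 ± 0.26 (95% interval 0.18 to 1.31), which did not pass (adjusted p = 0.172). It passed in 4 of 20 alternative analyses, among them the one without CTCFL-KD replicate 1 (adjusted p = 0.0355).

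TWIST2 (ENSG00000233608.4, chr2:238848032-238910534, plus strand), the close paralog of TWIST1, was low and not tested. It had 4, 10 and 5 counts in Control, 2, 2 and 0 counts in CTCFL-OE, and 0 counts in all CTCFL-KD libraries. Every treated library lay below every Control library. The summed counts were 4.16 times lower in CTCFL-OE (95% counting interval 1.38 to 16.8) and at least 1.37-fold lower in CTCFL-KD, taking 3 counts per library as the limit. With no low-count filter its adjusted p was 0.274 for overexpression and 0.0016 for depletion. In both treatments the TWIST1 libraries thus lay above Control and the TWIST2 libraries below it.

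OVOL1 (ENSG00000172818.10, chr11:65787063-65797214, plus strand), which encodes a zinc finger repressor of ZEB1, was the gene of the 6 tested for which CTCFL-OE and CTCFL-KD lay furthest apart. Its level was 3.41, 4.39 and 4.41 CPM in Control, 5.34, 8.83 and 9.22 CPM in CTCFL-OE, and 1.44, 2.14 and 2.3 CPM in CTCFL-KD. The groups did not overlap, with CTCFL-OE above and CTCFL-KD below Control. OVOL1 shares 1039 exonic bases with an antisense gene, ENSG00000255404, which was at 0 counts in all libraries, and with the strand setting not given these reads are uncertain. OVOL1 fell in CTCFL-KD by 1.03 on the log2 scale (SE 0.28, adjusted p = 0.015), and by 0.87 without CTCFL-KD replicate 1 (adjusted p = 0.0266). That call was lost when Control replicate 2 or Control replicate 3 was left out (adjusted p = 0.0512 and 0.0511). In CTCFL-OE the log2 fold change was 0.93 ± 0.26 (95% interval 0.36 to 1.5) with an adjusted p of 0.113, just outside the threshold of 0.1. It passed in 10 of 20 alternatives, with adjusted p from 0.00609 to 0.399, including those without CTCFL-OE replicate 1 (0.0284) and without CTCFL-KD replicate 1 (0.0259). The direct comparison of CTCFL-KD with CTCFL-OE, in which the Control libraries cancel, gave -1.96 ± 0.28 (adjusted p = 0.000597).

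OVOL2 (ENSG00000125850.11, chr20:17956979-18059188, minus strand), the second member of this family, did not pass in any comparison. Its level was 17.1, 17 and 18.1 CPM in Control, 17.8, 14.1 and 11.8 CPM in CTCFL-OE, and 24.7, 14 and 13.4 CPM in CTCFL-KD. The groups overlapped, and CTCFL-KD replicate 1 lay above all other libraries. The log2 fold change was -0.25 ± 0.25 in CTCFL-OE (95% interval -0.8 to 0.3, adjusted p = 0.622) and -0.01 ± 0.25 in CTCFL-KD (-0.56 to 0.54, adjusted p = 0.979). Without CTCFL-KD replicate 1 the value in CTCFL-KD was -0.34 (adjusted p = 0.103). OVOL2 shares 59 exonic bases on its own strand with SNX5, so part of its counts is uncertain. OVOL3, the third gene of the family, had 0 to 5 counts per library.

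GRHL2 (ENSG00000083307.12, chr8:101492439-101669726, plus strand), which activates CDH1 and claudin genes, was 62, 66.3 and 63.4 CPM in Control, 71.2, 72 and 62.4 CPM in CTCFL-OE, and 74.1, 91.4 and 88.1 CPM in CTCFL-KD. All CTCFL-KD libraries lay above all others. The log2 fold change in CTCFL-KD was 0.41 ± 0.16 (95% interval 0.06 to 0.75) and did not pass the threshold of 0.05 (adjusted p = 0.0635). It passed in 3 of 20 alternative analyses, with adjusted p up to 0.371. Without CTCFL-KD replicate 1, the lowest of the group, it was 0.49 (adjusted p = 0.00284), and after removal of the length trend from each library 0.47 (adjusted p = 0.0121). In CTCFL-OE it was 0.1 ± 0.16 (-0.25 to 0.45, adjusted p = 0.767).

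ESRP1 (ENSG00000104413.18, chr8:94641074-94707466, plus strand), a splicing regulator of epithelial cells, was the most abundant of the 10. Its level was 168, 166 and 179 CPM in Control, 193, 155 and 152 CPM in CTCFL-OE, and 134, 167 and 179 CPM in CTCFL-KD. The groups overlapped. The log2 fold change was -0.04 ± 0.18 in CTCFL-OE (95% interval -0.43 to 0.36, adjusted p = 0.931) and -0.1 ± 0.18 in CTCFL-KD (-0.49 to 0.3, adjusted p = 0.696), and 0.02 without CTCFL-KD replicate 1.

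**Figure D2:**
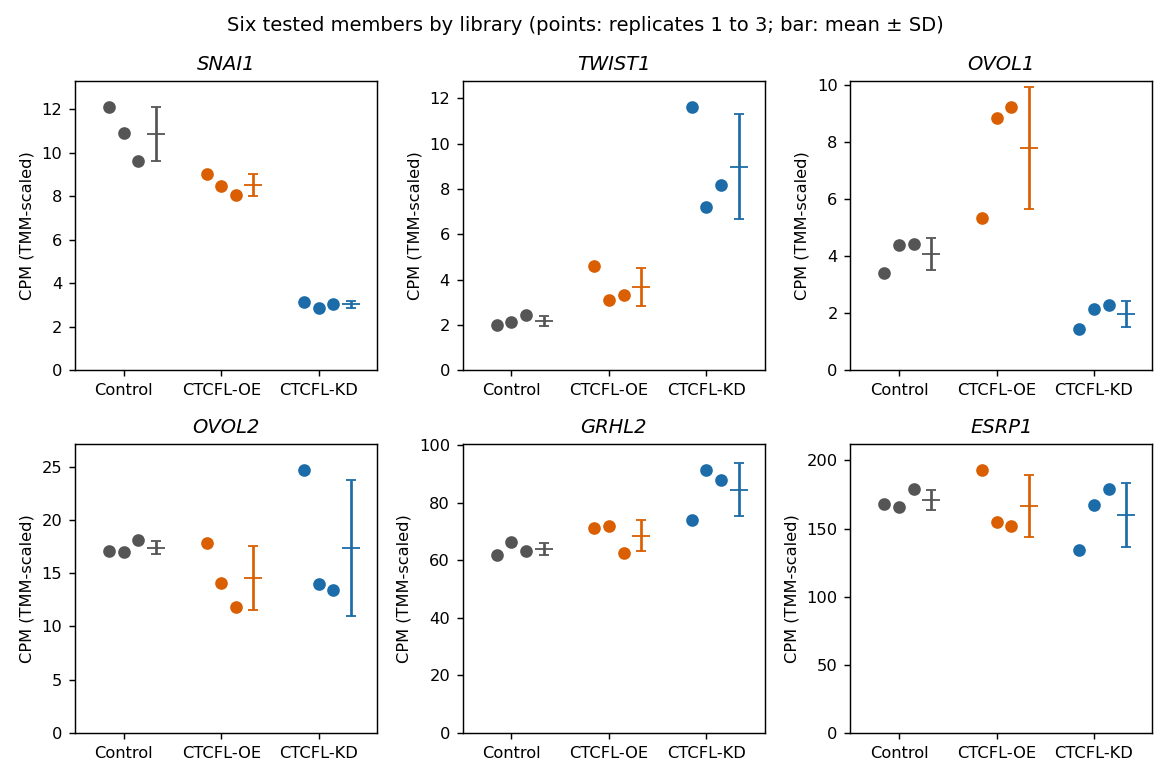
CPM of the 6 tested genes in each library, with the mean and SD of 3 libraries beside the points of each group. SNAI1 and OVOL1 are lowest and TWIST1 is highest in CTCFL-KD, OVOL1 is highest in CTCFL-OE, and ESRP1 overlaps between all groups.

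In CTCFL-OE against Control, 0 of the 6 tested genes were called by edgeR at an adjusted p under 0.1, where 3.15% of all 17794 tested genes were (1.99% higher and 1.16% lower). At an unadjusted p under 0.05 there were 2, TWIST1 and OVOL1. DESeq2 called 1 on all libraries and 2 on the compared groups. The count was 1 without CTCFL-OE replicate 1 and 3 without CTCFL-KD replicate 1. The share of all genes called moved with these settings, to 7.65% with DESeq2 on all libraries, 22% with DESeq2 and 20.2% with edgeR on the compared groups, 15.1% without CTCFL-OE replicate 1 and 27.4% without CTCFL-KD replicate 1. Of the 6 tested genes, 3 had groups that did not overlap between CTCFL-OE and Control, against 37.1% of all tested genes.

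In CTCFL-KD against Control, 3 of the 6 tested genes were called at an adjusted p under 0.05, SNAI1 and OVOL1 lower and TWIST1 higher, each beyond a log2 fold change of 1 (23.2% of all tested genes were called and beyond it, and 2.07% in CTCFL-OE). Over all tested genes 38.2% were called, 21.4% higher and 16.8% lower, so this share was not far from the background. Groups did not overlap for 4 of the 6, against 56.3% of all tested genes. The median log2 fold change of the 6 tested genes was 0.03 with CTCFL raised, beside -0.01 over all genes, and -0.05 with CTCFL lowered, beside 0.077 over all genes. In CTCFL-KD against CTCFL-OE, 3 of 6 were called (26.8% of all genes): SNAI1 at -1.49 ± 0.18 (adjusted p = 0.000221), TWIST1 at 1.28 ± 0.25 (adjusted p = 0.00353) and OVOL1.

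**Figure D3:**
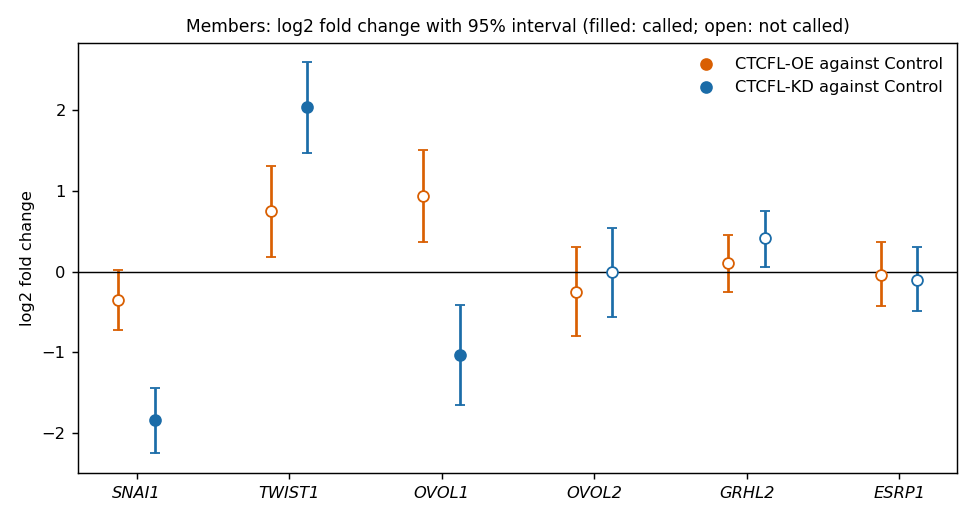
Log2 fold change against Control of the 6 tested genes, with 95% intervals from the edgeR fit of 3 libraries per group; filled points were called and open points were not. SNAI1 (-1.84), TWIST1 (2.03) and OVOL1 (-1.03) are filled in CTCFL-KD, and no point is filled in CTCFL-OE.

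Among 15 other factors linked to EMT, 12 were tested. In CTCFL-KD 3 rose, 3 fell and 6 did not pass, beside 21.4% of all tested genes called higher and 16.8% lower. The median log2 fold change was -0.29, and 4 of the 6 called were beyond 1. SNAI3, the third Snail gene, rose from 8 to 12 counts per library in Control to 30 to 33 in CTCFL-KD (log2 fold change 2.2 ± 0.33, adjusted p = 0.000503), opposite to SNAI1. TCF4, whose product can bind E-boxes, rose by 2.19 ± 0.26 (adjusted p = 0.000145). KLF8, the third that rose, held its call in 8 of 20 alternatives. It lost the call with the replicate block (0.69, adjusted p = 0.0669), where PRRX2 gained a call as lower. HMGA2, a chromatin protein known to induce SNAI1 and TWIST1, fell by 1.62 (SE 0.2, adjusted p = 0.000139) and SOX9, a factor of progenitor cells, fell by 1.03 (SE 0.21, adjusted p = 0.00341). In CTCFL-OE 2 of 12 were called, beside 3.15% of all tested genes, SOX9 at -1.06 ± 0.21 (adjusted p = 0.0447) and SOX4 at -0.78 ± 0.2 (adjusted p = 0.0939). The SOX9 call in CTCFL-OE was lost when any 1 of the Control libraries or CTCFL-OE replicate 2 was left out (adjusted p 0.176 to 0.228). That of SOX4 held in 11 of 20 alternatives and was lost without any 1 of the Control libraries, CTCFL-OE replicate 2 or 3, or CTCFL-KD replicate 2 (adjusted p 0.143 to 0.387), and with RLE scaling (0.104), upper-quartile scaling (0.101) or a filter of 10 counts in every library (0.107). The count was 6 of the 12 without CTCFL-KD replicate 1, and both tools called 6 of 11 on the compared groups.

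Of 11 other epithelial regulators 9 were tested, and in CTCFL-KD 7 of these rose and 1 fell, where 21.4% of all tested genes were called higher and 16.8% lower. The median log2 fold change was 0.83, and 4 of the 8 called were beyond 1. FOXA1, a pioneer factor of glandular epithelium, rose from 0.557 to 0.651 CPM in Control to 4.96 to 9.04 in CTCFL-KD (3.66 ± 0.31, adjusted p = 1.6e-05). EHF, an epithelial ETS factor, rose by 1.78 ± 0.32 (adjusted p = 0.00169). The paralogs of GRHL2 rose as well, GRHL3 by 1.57 ± 0.3 (adjusted p = 0.00217) and GRHL1 by 0.83 ± 0.29 (adjusted p = 0.0413), and so did the paralog of ESRP1, ESRP2, by 0.57 ± 0.17 (adjusted p = 0.0231). The calls of GRHL1 and ESRP2 held in 12 and 14 of 20 alternatives and were lost without any 1 of the Control libraries or CTCFL-KD replicate 2 or 3, GRHL1 also without CTCFL-OE replicate 2, with adjusted p up to 0.131 and 0.0995. ESRP2 was also lost with no low-count filter (0.5, adjusted p = 0.124) and GRHL1 with edgeR on the compared groups (0.83, adjusted p = 0.0519). With the replicate numbers as a block GRHL1 was at 0.82 (adjusted p = 0.0594). KLF5, a factor of proliferating epithelium, fell by 0.84 (SE 0.26, adjusted p = 0.0266), a call lost without any 1 of the Control libraries or CTCFL-KD replicate 2 (adjusted p up to 0.0832). The counts of 7 higher and 1 lower were the same without CTCFL-KD replicate 1, where 49.9% of all tested genes were called. They were 6 and 0 with edgeR on the compared groups. ELF3, another of the 7, also lost its call without any 1 of the Control libraries (adjusted p 0.0524 to 0.07). Leaving out a Control library thus lost GRHL1, ESRP2, ELF3 and KLF5 together, where 25.8 to 26.8% of all tested genes were called. With CTCFL raised, 0 of the 9 were called by edgeR or by DESeq2 on all libraries and 1 had an unadjusted p under 0.05. Each tool called 1, KLF5, as lower when fitted to the compared groups, and 2 were called by edgeR without CTCFL-KD replicate 1.

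Genes of epithelial junctions and polarity that these factors are known to control mostly stood higher in CTCFL-KD. Of 23, all tested, 13 rose, 1 fell and 9 did not pass, against 21.4% higher and 16.8% lower over all tested genes. The median log2 fold change was 0.9, and 11 of the 14 called were beyond 1. These counts were 18 and 1 without CTCFL-KD replicate 1, a fit in which 49.9% of all tested genes were called in either direction. CDH1, the gene of E-cadherin, was 181, 201 and 195 CPM in Control and 282, 375 and 381 CPM in CTCFL-KD, with no overlap (0.85 ± 0.23, adjusted p = 0.0134). That call was lost without Control replicate 1 or Control replicate 3, with adjusted p up to 0.0628. EPCAM, an epithelial adhesion molecule, rose by 1.19 ± 0.28 (adjusted p = 0.00744). CLDN3, a tight junction claudin, was 104, 92.4 and 99.9 CPM in Control, 135, 182 and 266 CPM in CTCFL-OE and 973, 434 and 455 CPM in CTCFL-KD. CLDN3 rose by 2.65 ± 0.35 (adjusted p = 0.000288) and PRSS8, a membrane serine protease of epithelium, by 2.2 ± 0.3 (adjusted p = 0.000339). PKP3, a desmosomal plakophilin, was the gene that fell (-0.59 ± 0.18, adjusted p = 0.0209), a call lost without any 1 of the Control libraries or CTCFL-KD replicate 2 or 3 (up to 0.0743).

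In CTCFL-OE, 0 of the 23 passed with edgeR on all libraries, with a median log2 fold change of 0.26 and 7 genes at an unadjusted p under 0.05. DESeq2 called 4 on all libraries and 9 on the compared groups, 7 of the 9 higher, and edgeR on the compared groups called 8, of which 7 were higher. Over all tested genes 3.15%, 7.65%, 22% and 20.2% were called in these 4 fits. Without CTCFL-KD replicate 1 the count was 9, and without CTCFL-OE replicate 1 it was 5. CDH1 was 167, 236 and 289 CPM and EPCAM 321, 349 and 604 CPM in CTCFL-OE, ranges that overlapped Control, with log2 fold changes of 0.26 ± 0.23 (adjusted p = 0.566) and 0.27 ± 0.28 (adjusted p = 0.639).

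The promoters of these targets were searched for CAGGTG, the E-box read by SNAI and ZEB proteins, on both strands, so that it also appears as CACCTG. RefSeq promoter windows (GRCh38.p14, 250 bases before to 50 after the start) were found for 13 of the 23 genes, and 12 of these held an E-box in at least 1 window. Over all 27305 genes with a window the share was 24.1%. The list was assembled from known targets, so its share is a description. The windows of CRB3, a polarity gene, and CLDN7 are shown because they held 5 E-boxes each, that of CLDN3 because the gene had the largest rise of the list, and that of MIR200CHG because it hosts miR-200c and miR-141. For a gene with several windows, the window with the most E-boxes was the one printed, so other starts may hold fewer. E-boxes are in capitals, and in CRB3 also the OVOL motif CCGTTA, which directly precedes an E-box without overlap, and the core AGGGGGC shared by CTCF and CTCFL, read on the minus strand.
CRB3 (chr19:6464021-6464320, plus strand): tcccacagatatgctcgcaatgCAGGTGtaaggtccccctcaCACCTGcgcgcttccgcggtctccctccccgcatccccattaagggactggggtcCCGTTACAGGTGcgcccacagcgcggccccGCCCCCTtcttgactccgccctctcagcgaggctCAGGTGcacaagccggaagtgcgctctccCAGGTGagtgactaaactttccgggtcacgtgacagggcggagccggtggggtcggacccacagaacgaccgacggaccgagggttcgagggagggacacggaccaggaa
CLDN7 (chr17:7262429-7262728, minus strand): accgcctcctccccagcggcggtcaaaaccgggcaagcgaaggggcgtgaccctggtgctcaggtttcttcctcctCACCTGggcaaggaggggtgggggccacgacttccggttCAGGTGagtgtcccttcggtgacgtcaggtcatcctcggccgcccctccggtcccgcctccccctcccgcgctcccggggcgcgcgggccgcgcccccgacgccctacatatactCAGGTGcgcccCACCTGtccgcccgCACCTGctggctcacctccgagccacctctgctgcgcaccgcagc
CLDN3 (chr7:73770221-73770520, minus strand): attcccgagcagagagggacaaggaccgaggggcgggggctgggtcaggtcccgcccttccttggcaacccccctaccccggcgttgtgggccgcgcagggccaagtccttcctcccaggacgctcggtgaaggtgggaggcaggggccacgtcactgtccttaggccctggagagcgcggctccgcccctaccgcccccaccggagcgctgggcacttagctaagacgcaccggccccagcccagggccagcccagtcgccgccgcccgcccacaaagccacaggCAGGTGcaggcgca
MIR200CHG (chr12:6962995-6963294, plus strand): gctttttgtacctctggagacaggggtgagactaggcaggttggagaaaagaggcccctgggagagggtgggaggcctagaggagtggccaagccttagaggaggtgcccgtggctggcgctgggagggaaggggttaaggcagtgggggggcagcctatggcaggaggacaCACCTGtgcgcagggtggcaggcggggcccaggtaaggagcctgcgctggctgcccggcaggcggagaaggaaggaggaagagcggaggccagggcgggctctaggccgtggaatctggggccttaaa
In CRB3 the E-boxes began at -228, -208, -147, -89 and -60 from the start, in CLDN7 at -174, -135, -20, -9 and 6, in CLDN3 at 37 and in MIR200CHG at -78. CLDN7, whose window held as many E-boxes as that of CRB3, rose in CTCFL-KD by 1.44 ± 0.29 (adjusted p = 0.0029), while CRB3 was at 0.51 ± 0.21 and did not pass (adjusted p = 0.0754). The OVOL motif was held by 1 of the 13 targets with a window, CRB3, and by 3.8% of all genes with one. The CTCF and CTCFL core was held by 4 of the 13 (CRB3, PATJ, OCLN and TJP3) and by 16.6% of all genes. The grainyhead motif AACCGGTT was in 0 of the 13 and in 0.165% of all genes. Of the 10 regulators, windows were found for ZEB1, ZEB2 and TWIST2. The OVOL motif was in those of ZEB1 and ZEB2, in ZEB2 from base 24 after the start as TAACGG, and the E-box and the CTCF and CTCFL core were in a window of ZEB1.
ZEB2 (chr2:144520070-144520369, minus strand): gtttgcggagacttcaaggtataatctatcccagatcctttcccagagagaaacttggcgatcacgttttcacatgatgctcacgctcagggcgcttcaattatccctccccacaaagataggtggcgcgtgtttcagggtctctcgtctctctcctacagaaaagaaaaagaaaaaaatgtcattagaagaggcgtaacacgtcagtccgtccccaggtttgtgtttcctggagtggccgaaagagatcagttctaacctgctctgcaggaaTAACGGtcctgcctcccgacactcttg
The capitals in the ZEB2 window, shown because OVOL proteins are repressors of ZEB genes and OVOL1 was a gene that changed, mark the OVOL motif. A match of letters is not evidence of binding.

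The miR-200 family and miR-205 target ZEB1 and ZEB2 transcripts. The libraries were made from mRNA and did not measure mature microRNAs, and of 8 host and precursor genes 2 hosts were tested. Both were called higher in CTCFL-KD, as were 21.4% of all tested genes, and CTCFL-KD replicate 1 was the highest library for each. MIR200CHG was 1.95, 1.71 and 1.92 CPM in Control, 2.01, 3.03 and 3.13 CPM in CTCFL-OE and 9.56, 2.74 and 2.3 CPM in CTCFL-KD, with a log2 fold change of 1.34 ± 0.48 (adjusted p = 0.0478). MIR205HG was 1.05, 1.4 and 0.861 CPM in Control and 6.67, 2.44 and 1.53 CPM in CTCFL-KD (1.62 ± 0.5, adjusted p = 0.0259). Without CTCFL-KD replicate 1, 0 of the 2 hosts were called, with MIR200CHG at 0.44 (adjusted p = 0.166) and MIR205HG at 0.82 (adjusted p = 0.0685). On the compared groups alone edgeR called 0 of the 2 (adjusted p = 0.105 for MIR200CHG and 0.0642 for MIR205HG). The MIR200CHG call held in 8 of 20 alternatives and was lost without any 1 of the Control or CTCFL-OE libraries or CTCFL-KD replicate 1 (adjusted p up to 0.166) and with the replicate block (0.0707), and that of MIR205HG was also lost without Control replicate 1 or Control replicate 3 (up to 0.0877). With CTCFL raised, 0 of the 2 were called by edgeR, by DESeq2 or at an unadjusted p under 0.05. The mature sequences are shown because the seed, bases 2 to 8 in capitals, sorts the miR-200 family into 2 groups.
hsa-miR-200b-3p: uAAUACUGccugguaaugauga
hsa-miR-200c-3p: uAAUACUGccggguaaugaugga
hsa-miR-429: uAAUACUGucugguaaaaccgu
hsa-miR-200a-3p: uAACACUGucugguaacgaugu
hsa-miR-141-3p: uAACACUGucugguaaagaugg
hsa-miR-205-5p: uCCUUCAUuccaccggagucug
The seed AAUACUG is shared by miR-200b, miR-200c and miR-429, AACACUG by miR-200a and miR-141, and miR-205 has its own seed.

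Of 13 mesenchymal targets 12 were tested, and in CTCFL-KD 2 rose, 4 fell and 6 did not pass, so that the share called was not far from the 38.2% over all tested genes. The median log2 fold change was -0.29, and 5 of the 6 called were beyond 1. TNC, the gene of the matrix protein tenascin C, rose by 2 ± 0.26 (adjusted p = 0.000228). CDH2, the gene of N-cadherin, was 10.2, 11.1 and 11 CPM in Control, 5.15, 4.55 and 7.01 CPM in CTCFL-OE and 17.4, 30.7 and 27.8 CPM in CTCFL-KD. Its groups did not overlap, and it rose in CTCFL-KD (1.23 ± 0.24, adjusted p = 0.00236). MMP2, a matrix metalloprotease, fell (-2.75 ± 0.35, adjusted p = 0.000197), as did THBS1, the gene of the matrix protein thrombospondin 1 (-2.62 ± 0.5, adjusted p = 0.0024). VIM, the gene of vimentin, fell in CTCFL-KD (-0.95 ± 0.25, adjusted p = 0.0113).

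In CTCFL-OE 3 of the 12 were called, all lower, beside 1.16% of all tested genes called lower, and 2 of the 3 were beyond a log2 fold change of 1. VIM was 9.42, 8.78 and 8.61 CPM in Control, 2.69, 1.78 and 2.03 CPM in CTCFL-OE and 6.22, 3.45 and 4.33 CPM in CTCFL-KD. Both treated groups lay below Control, CTCFL-OE furthest (-2.04 ± 0.26, adjusted p = 0.00629), a call that held in 20 of 20 alternatives. FN1, the gene of fibronectin (-1.6 ± 0.39, adjusted p = 0.0795), and CDH2 (-0.96 ± 0.24, adjusted p = 0.0878) were also lower in CTCFL-OE. FN1 was called lower in CTCFL-KD as well (-1.9, adjusted p = 0.00365). The calls in CTCFL-OE held in 14 and 13 of 20 alternatives. Both were lost without any 1 of the Control libraries, CTCFL-OE replicate 2, CTCFL-OE replicate 3 or CTCFL-KD replicate 2, and CDH2 also without CTCFL-KD replicate 3, with adjusted p up to 0.282 and 0.352. Of the other genes, SPARC, which encodes a matrix glycoprotein, was above Control in every CTCFL-OE library and just missed the threshold (0.77, adjusted p = 0.104), which it passed in 12 of 20 alternatives. Without CTCFL-KD replicate 1 the count was 6, with 2 higher and 4 lower, and without CTCFL-OE replicate 1 it was 6, with 3 higher and 3 lower. On the compared groups alone DESeq2 called 6, of which 2 were higher, and edgeR 5, of which 1 was higher. CDH2 thus lay below Control in CTCFL-OE and above it in CTCFL-KD.

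**Figure D4:**
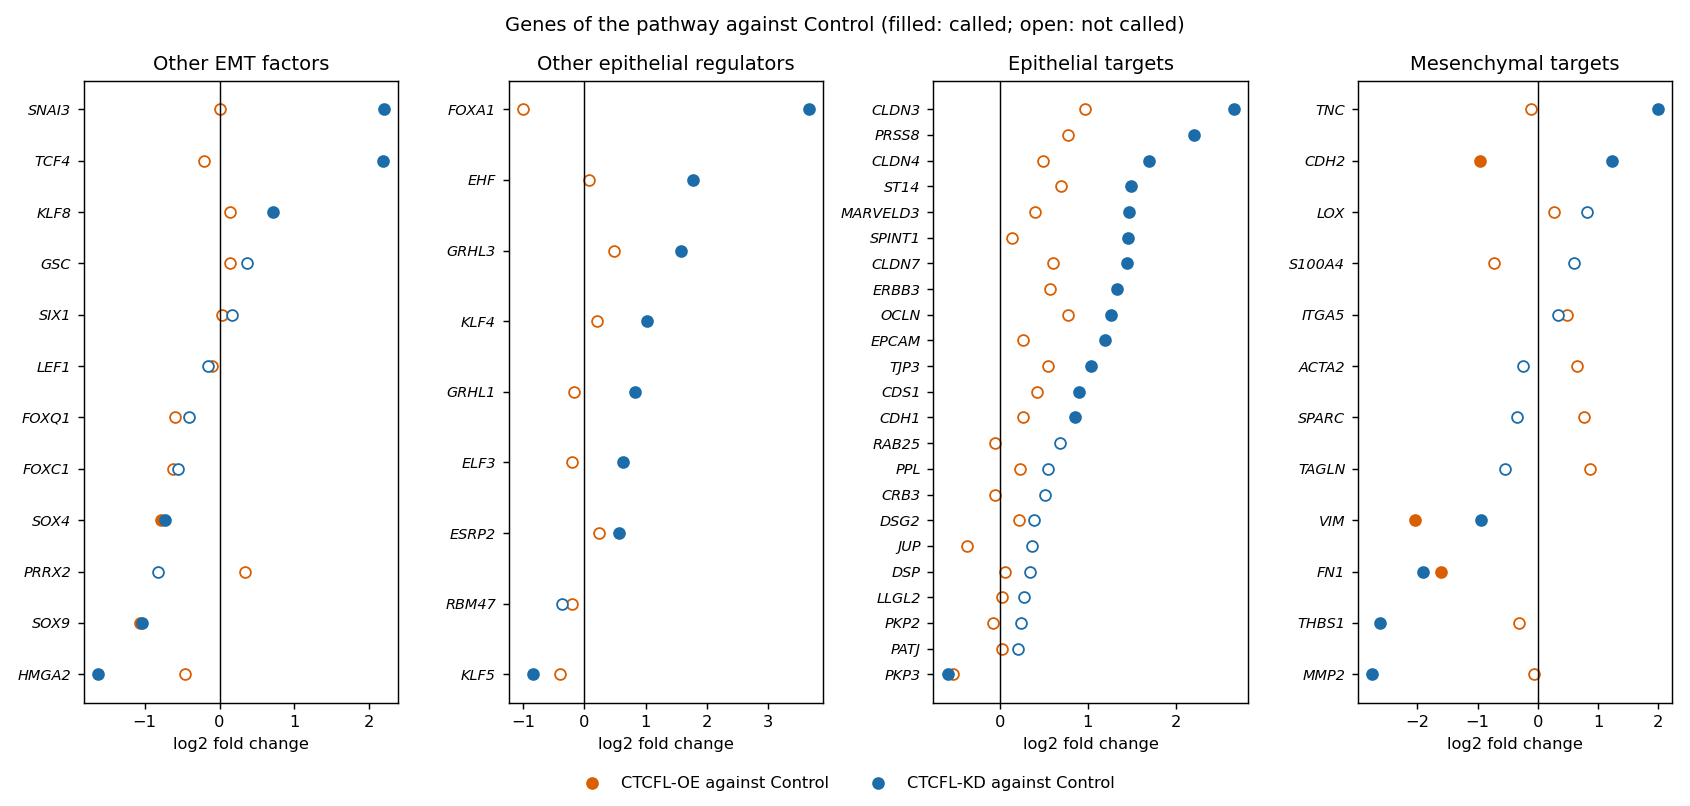
Log2 fold change against Control of the tested genes in the lists of other EMT factors, other epithelial regulators, epithelial targets and mesenchymal targets, each ordered by the value in CTCFL-KD; filled points were called and open points were not. In CTCFL-KD 7 of 9 other epithelial regulators and 13 of 23 epithelial targets were called higher, and in CTCFL-OE the filled points are SOX9, SOX4, VIM, FN1 and CDH2.

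Genes whose transcripts ESRP proteins are known to splice were compared by total level only, since the table does not hold isoforms. Of 8, in CTCFL-KD 1 rose and 4 fell, beside 21.4% of all tested genes called higher and 16.8% lower. ESRP1 levels overlapped between groups, and ESRP2 was called higher in CTCFL-KD (0.57, adjusted p = 0.0231). FGFR2, a growth factor receptor with epithelial and mesenchymal isoforms, rose by 1.02 ± 0.23 (adjusted p = 0.00518). CD44, the hyaluronan receptor, was 62.1, 64.7 and 64.3 CPM in Control and 8.93, 8.09 and 9.2 CPM in CTCFL-KD, and fell by 2.87 (SE 0.41, adjusted p = 0.000398), while ENAH, an actin regulator, fell by 1.43 (SE 0.27, adjusted p = 0.0024). With CTCFL raised, 0 of 8 were called by edgeR and 1 by DESeq2 on all libraries, 1 had an unadjusted p under 0.05, and DESeq2 called 2 and edgeR 1 on the compared groups. In the edgeR fit 3 were called without CTCFL-KD replicate 1 and 2 without CTCFL-OE replicate 1.

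For each of the called genes, the protein-coding genes closest in pattern over the 9 libraries were found among 13691, by the root mean square difference of centred log2 CPM. SNAI1 was closest to ZSCAN31 (0.126) and KRT5 (0.129), where its own spread around its mean was 0.787. TWIST1 was closest to RGS9 (0.217) and CERS4 (0.223), with an own spread of 0.843. OVOL1 was closest to IGF1R (0.154) and GRIN2B (0.187), with an own spread of 0.832.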

How the data were processed

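RNA-seq libraries (TruSeq Stranded mRNA kit, NextSeq, paired-end) of 3 Control, 3 CTCFL-OE and 3 CTCFL-KD samples were analysed from the gene counts deposited by the authors. Per the methods, reads were trimmed with Trimmomatic, aligned to GRCh38 with STAR and counted per gene with featureCounts. The submitters' processing notes also name kallisto, with no role given. The annotation release and strand setting are not given in the sources used here. GENCODE v44 gave names to 60419 of 60660 identifiers, exon lengths and coordinates.

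Counts were tested with edgeR 4.0.16 (R 4.3.3): filterByExpr, TMM, a robust quasi-likelihood fit over all 9 libraries with group as the term, and Benjamini-Hochberg adjustment over 17794 genes. A gene was called at an adjusted p under 0.1 for CTCFL-OE and 0.05 for the other comparisons. The methods state these limits for the comparisons with Control together with a fold change beyond 2, which was not required here. Counts that also meet it are given for the main lists. p-values measure the spread between these samples of 1 line. The same fit was tested on simulated data that held no length trend and no library standing apart, so that test does not cover these features. Alternatives were DESeq2 1.42.0, fits of the compared groups, RLE and upper-quartile scaling, other filters (none, 10 counts), a non-robust fit, a replicate block, removal of the length trend, and leaving out each library. Libraries of CTCFL-KD and Control with the same replicate number correlated in their deviations at 0.18, 0.115 and 0.113. With the length trend removed these correlations were 0.103, 0.0944 and 0.0597. The labels do not say that the numbers pair libraries, so the replicate block was kept as an alternative only. Intervals are at 95%. Levels were CPM with TMM scaling, and centred log2 CPM used a prior count of 2. The members and lists were chosen with earlier results of these data known. Named were all members and, per list and comparison, up to 2 called genes with the largest rise and 2 with the largest fall, plus their paralogs, CDH1, EPCAM, VIM, CDH2, MIR200CHG and antisense genes. CRB3, CLDN7, COL1A1, DCN, POSTN, SPARC, OCLN, PATJ, TJP3, ELF3, KLF8, PRRX2, CTBP2, KDM1A and BTRC were named after their values were seen. Of the mesenchymal targets, 1 gene is not reported here and was left out of the list's counts.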

Additional observations from a re-analysis of the deposited data

How the results depend on the processing

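Over 20 alternatives, 18 pairs of gene and comparison gave 360 values, of which 339 kept their side of the threshold, 2 lost it, 19 gained it and 0 changed sign in a call. The count of members called in CTCFL-OE against Control, 0 in the reported fit, was 1 with DESeq2 on all libraries, with upper-quartile scaling and with no low-count filter, and 2 with DESeq2 or edgeR on the compared groups and after removal of the length trend. Leaving out 1 library gave 0 to 3. With the replicate block it was 1, and 1 with the block and length trend removed together. By replicate number, the correlations of deviations of Control and CTCFL-OE were -0.0108, 0.154 and -0.0482, and the labels do not pair these libraries either. For CTCFL-KD the block left the count at 3 and changed no member's call. Counts in CTCFL-KD ran from 2 to 4, and in CTCFL-KD against CTCFL-OE from 3 to 4. The number of all genes called in CTCFL-OE, 561, was 5040 without CTCFL-KD replicate 1 and 2780 without CTCFL-OE replicate 1, 44 to 61 without a Control library, 79 and 117 without CTCFL-OE replicates 2 and 3, 1373 and 3775 with DESeq2 on all libraries and on the compared groups, 3450 with edgeR on the compared groups, 1517 with no low-count filter, and 1566 and 1215 with the length trend removed, without and with the block. The list counts without these libraries, with the length trend removed, with DESeq2 and with fits of the compared groups were added after seeing the data. The cause of these shifts was not tested. Genes under 3 counts per library could not be told from absence at this depth.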

Other observations

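Of 15 cofactors and turnover factors of the EMT factors, all tested, 0 rose and 6 fell in CTCFL-KD, where 38.2% of all tested genes were called in either direction and 16.8% were called lower. The median log2 fold change was -0.59. Without CTCFL-KD replicate 1 8 fell with a median of -0.38, where 49.9% of all tested genes were called in either direction. Without Control replicate 3 the calls of CTBP2, KDM1A, AJUBA and BTRC were lost (adjusted p 0.0539 to 0.101), where 25.8% of all tested genes were called. HDAC1, a histone deacetylase recruited by Snail, fell by 0.88 (SE 0.18, adjusted p = 0.00292), and AJUBA, a LIM protein that bridges Snail to its corepressors, fell by 0.8 (SE 0.23, adjusted p = 0.0182, above 0.05 without Control replicate 1 or Control replicate 3). In CTCFL-OE 0 of 15 were called by edgeR on all libraries, 2 had an unadjusted p under 0.05 and 1 was called by DESeq2 on all libraries. Fitted to the compared groups, DESeq2 called 6 and edgeR 5, all lower, and in the edgeR fit 7 were called without CTCFL-KD replicate 1 and 1 without CTCFL-OE replicate 1.

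Of 5 splicing factors linked to mesenchymal isoforms, 3 fell in CTCFL-KD, where 16.8% of all tested genes did, among them MBNL1 (-1.08 ± 0.2, adjusted p = 0.00219) and PTBP1 (-0.74 ± 0.17, adjusted p = 0.00628). All 5 were called lower without CTCFL-KD replicate 1, where 49.9% of all tested genes were called in either direction. The median log2 fold change of the 5 was -0.51 in that fit, beside -0.74 in the reported one. On the compared groups edgeR called 2 of the 5, where 36.8% of all tested genes were called. In CTCFL-OE 0 of the 5 were called by edgeR, by DESeq2 or at an unadjusted p under 0.05, and 2 were called without CTCFL-KD replicate 1.

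Among 7 antisense genes and copies, SNAI3-AS1 rose in CTCFL-KD together with SNAI3 (1.08 ± 0.33, adjusted p = 0.0235), a call that held in 15 of 20 alternatives and was lost without any 1 of the Control libraries or CTCFL-KD replicate 3 (adjusted p up to 0.0945) and with the replicate block and length trend removal together (0.0556). The pair lies on opposite strands and shares 177 exonic bases, and with the strand setting not given, reads there cannot be told apart.

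Of the 10 ovarian carcinoma markers, 7 rose and 2 fell in CTCFL-KD, beside 21.4% higher and 16.8% lower over all tested genes. MUC16, the gene of the CA-125 antigen, was 188 to 283 CPM in Control and 1010 to 1980 in CTCFL-KD (2.84 ± 0.34, adjusted p = 0.000149), and FOLR1, the folate receptor gene, rose by 2.79 ± 0.41 (adjusted p = 0.000497). KRT7, a simple epithelial keratin, fell by 1.12 (SE 0.31, adjusted p = 0.0164), and WT1, a factor of serous tumours, by 0.63 (SE 0.2, adjusted p = 0.0272). The KRT7 call was lost without CTCFL-KD replicate 2 or CTCFL-KD replicate 3 (adjusted p 0.0519 and 0.0516) and the WT1 call without any 1 of the Control libraries (0.0695 to 0.0836). CDH1 and EPCAM are in this list and among the epithelial targets. For overexpression 0 of the 10 were called by edgeR and 2 by DESeq2 on all libraries, 2 had an unadjusted p under 0.05, and both tools called 4, of which 3 were lower, on the compared groups. In the edgeR fit 4 were called without CTCFL-KD replicate 1 and 2 without CTCFL-OE replicate 1.

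Among immune and endothelial markers, CD14 rose (3.84 ± 0.58, adjusted p = 0.000571) and PECAM1 fell (-2.56 ± 0.38, adjusted p = 0.000511) in CTCFL-KD. VWF, a clotting factor gene, was called higher in CTCFL-OE (0.71 ± 0.19, adjusted p = 0.0951), a call that held in 9 of 20 alternatives and was lost without any 1 of the Control libraries or CTCFL-OE or CTCFL-KD replicate 2 or 3 (adjusted p 0.11 to 0.411).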
